A study of Mus musculus with 15 samples.

Results

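The major urinary proteins (MUPs) are small secreted lipocalins that bind volatile pheromones and carry them into mouse urine. They are made mainly by hepatocytes, most of all in males, from a cluster of gene copies on chromosome 4, and their transcription in liver is known to depend on pulsatile growth hormone, androgens and glucocorticoids. The members described here were every row of the deposited gene table whose name, or one of whose names, was Mup followed by a number. There were 17 such rows, of 23589 rows with a gene name and 33603 rows in all. Of the 17 rows, 14 carried 1 gene name and 3 carried several (Mup15/Mup2/Mup7, Mup14/Mup15/Mup2 and Gm2083/Mup10/Mup11/Mup2). The family was chosen on its counts, which differed between the diets in liver and fat, and the values in those contrasts are given as a description.

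Male C57BL/6 mice were kept on 3 diets, and RNA-Seq was done on their colon, hippocampus, hypothalamus, liver and epididymal fat. The AL mice ate ad libitum and were 5 months old, the DR mice ate 60% of the AL intake for 1 month from 4 months of age and were also 5 months old, and the DR-AL mice had the same month of restriction followed by 2 months of AL feeding and were 7 months old. Age and diet therefore cannot be told apart in DR-AL. Each of the 15 libraries held RNA pooled from 5 mice, with 1 library per tissue and diet, so no difference has a replicate check, every test compares libraries and not diets, and every interval covers counting error only. The libraries held between 21767088 and 40500130 counts on named rows (median 26554699). CPM are counts scaled to a common library total of named rows.

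The table lists some abundant genes at 0. Of 22 hepatocyte markers, 21 had counts in every liver library, and Alb, the most familiar of them, was listed at 0 in all 15 libraries. Scd1, a lipogenic desaturase, was listed at 0 in all 5 DR libraries, with 106055 counts in AL liver and 81564 in DR-AL liver. A 0 in the table is therefore given here as listed at 0, and no fold of a Mup row is drawn from it. All 10 adipocyte markers had counts in every fat library, and so did all 6 markers of testis germ cells, whose summed level was 4.54 CPM in AL fat, 521 CPM in DR fat and 2510 CPM in DR-AL fat. The summed level of 6 epididymis markers was 847, 3094 and 4607 CPM in the same libraries. By the call rule given below, all 6 were higher in DR than in AL fat (35.2% of all rows). In DR-AL against DR fat, 1 was higher and 5 lower (38.3% and 13.3% of all rows), with a median log2 fold change of -4.96. The last rise of this sum thus rested on 1 gene. The part of these other cells in the fat results was not tested. Bulk RNA also cannot tell fewer cells of a type from less RNA per cell.

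How much of each Mup transcript is its own decides which rows can be read singly, so a stretch of 75 bases, the length of a read, is shown first. These are bases 313 to 387 of the coding sequence, 5′ to 3′, in GENCODE M21 transcripts. Of the windows without gaps, this one was picked because Mup20 differs most from Mup17 in it, so it is not typical. The capitals mark bases that differ from Mup17.
Mup17: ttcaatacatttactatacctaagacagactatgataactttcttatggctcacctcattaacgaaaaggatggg
Mup10: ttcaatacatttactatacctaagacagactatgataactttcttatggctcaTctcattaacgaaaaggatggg
Mup1: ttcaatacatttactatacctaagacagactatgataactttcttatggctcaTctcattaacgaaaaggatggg
Mup16: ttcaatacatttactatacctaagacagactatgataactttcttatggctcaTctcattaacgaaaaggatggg
Mup20: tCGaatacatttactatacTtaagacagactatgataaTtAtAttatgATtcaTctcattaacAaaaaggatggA
Mup3: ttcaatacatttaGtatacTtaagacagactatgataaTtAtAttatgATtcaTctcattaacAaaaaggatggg
Mup21: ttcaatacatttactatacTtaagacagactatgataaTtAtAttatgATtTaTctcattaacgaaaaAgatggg
In this window Mup10, Mup1 and Mup16 were identical to each other and differed from Mup17 at 1 base, whereas Mup20 differed from it at 11 bases and Mup3 and Mup21 at 9 bases each. Over the whole coding sequence, Mup17 shared 98.9% of bases with Mup10 and Mup16, 91.0% with Mup20, 84.9% with Mup21 and 83.6% with Mup3.

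The family fell into 2 kinds of row. Mup3, Mup4, Mup5, Mup6, Mup20 and Mup21 had counts in all 3 liver libraries. The other 11 rows were listed at 0 in AL liver. The genes of the 11 rows shared between 98.3% and 99.8% of coding bases with each other (median 99.1%, 91 pairs of 14 genes), and between 0% and 31.3% (median 11.4%) of their 75-base words occurred in no other gene. For the other 6 genes that share was 56.4% in Mup20, 89.7% in Mup21, 93.2% in Mup3, 95.4% in Mup5, 99.6% in Mup4 and 100% in Mup6. The 372 words that Mup20 did not hold alone were all shared with 1 pseudogene, Mup-ps19. A read from one of the 6 could thus mostly be told apart, and a read from the 11 rows mostly could not.

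**Figure D1:**
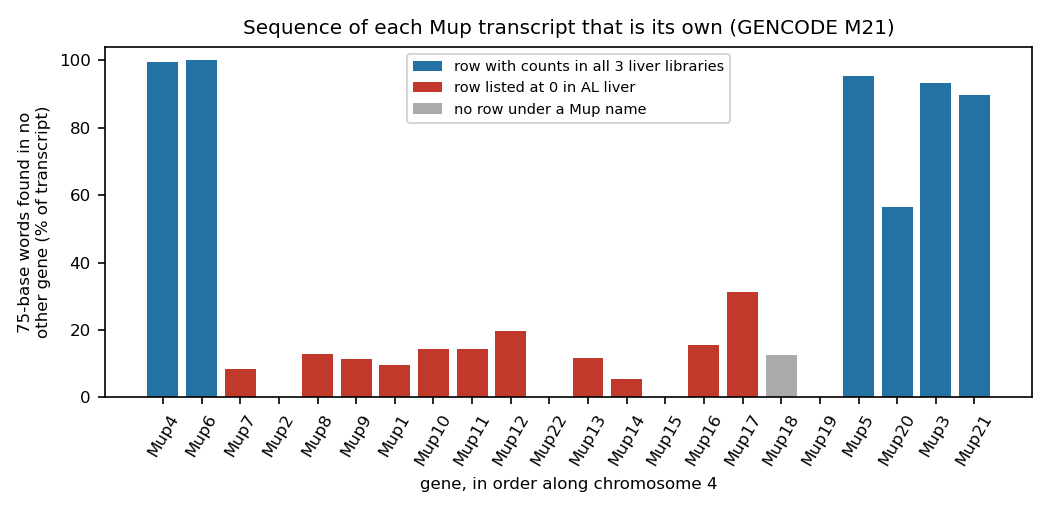
Percent of the 75-base words of each Mup transcript that occur in no other gene of GENCODE M21 (vertical axis), with the 22 genes in their order along chromosome 4; colours mark rows with counts in all 3 liver libraries, genes of rows listed at 0 in AL liver, and genes with no row under a Mup name. The 6 genes with counts in every liver library stand between 56.4% and 100%, and every other gene is at or under 31.3%.

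On GRCm38, Mup20 lies at chr4:62050234-62054158, Mup3 at chr4:62083476-62087342, Mup21 at chr4:62147932-62150863, Mup5 at chr4:61831319-61835233 and Mup4 at chr4:59956804-59960710, all on the minus strand, and Mup6 lies at chr4:59964294-60007274 on the plus strand. The 6 genes therefore stand at both edges of the cluster, with the genes of the 11 rows between them.

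In liver, Mup20, Mup3 and Mup21 were far above Mup4, Mup5 and Mup6 under AL. The other 11 rows were listed at 0 there, so their AL level is not known. All 6 separable genes had lower levels under DR than under AL and higher levels in DR-AL than in DR. Mup3, Mup5 and Mup21 stayed below their AL levels in DR-AL, at log2 fold changes of -0.23, -0.52 and -0.32. The 17 rows together took 1.85% of the counts of AL liver, 0.509% of DR liver and 2.06% of DR-AL liver. These were 457111, 110866 and 505635 counts over the 17 rows, or 18481, 5093 and 20642 CPM. The AL sum holds the 6 separable rows alone, while DR and DR-AL liver had 8486 and 21579 counts on the other 11 rows. The sums therefore do not cover the same rows in each library. The summed level was 3.63-fold lower in DR than in AL (log2 fold change -1.86, 95% interval -1.87 to -1.85) and slightly higher in DR-AL than in AL (0.16, 0.15 to 0.17). Over the 6 separable rows alone, the log2 fold changes were -1.97 and 0.10. Without Mup20 the log2 fold change of the sum was -1.10 in DR and -0.08 in DR-AL against AL, so much of the first difference and the sign of the second, small one rested on 1 row.

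Mup20, also called darcin, is the male-specific MUP that acts as a pheromone in its own right. It had 233725 counts in AL liver (9449 CPM), 19246 in DR liver (884 CPM) and 296507 in DR-AL liver (12105 CPM). Its level was 10.7-fold lower in DR than in AL (log2 fold change -3.42, -3.44 to -3.40), and 0.36 higher in DR-AL than in AL (0.35 to 0.37). DR liver was thus the low library and DR-AL liver the high one.

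Mup3, the other abundant row, had 213332 counts in AL liver (8625 CPM), 80350 in DR liver (3691 CPM) and 179513 in DR-AL liver (7328 CPM). It was 2.34-fold lower in DR than in AL (log2 fold change -1.22, -1.24 to -1.21), a smaller difference than that of Mup20, and its DR-AL level stayed below AL by less than the fold required for a call (-0.23). On the length-scaled FPKM scale the levels of both genes were alike in AL liver, at 23989 for Mup20 and 21518 for Mup3. In DR liver the order was turned, with 2178 FPKM for Mup20 and 8925 for Mup3, and in DR-AL liver Mup20 led again with 28573 against 17023.

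Mup21 had 9599 counts in AL liver, 2669 in DR liver and 7594 in DR-AL liver. Its DR level was 3.16-fold lower than in AL (log2 fold change -1.66, -1.72 to -1.60), and DR-AL stood between the other libraries at -0.32 against AL. Its level was 1262 FPKM in AL liver, well under those of Mup20 and Mup3 in the same library.

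Mup4, Mup5 and Mup6 were detected in liver at a far lower level. Mup4 and Mup5, which are known from secretory glands of the head more than from liver, had 149 and 110 counts in AL liver, 44 and 22 in DR liver, and 171 and 76 in DR-AL liver. Mup6 had 196 counts in AL liver, 49 in DR liver and 195 in DR-AL liver. The log2 fold changes of DR against AL were -1.57 for Mup4 (-2.09 to -1.08), -2.11 for Mup5 (-2.87 to -1.47) and -1.81 for Mup6 (-2.30 to -1.36), and these wide intervals overlapped each other and that of Mup21. Against AL, the DR-AL values were 0.21 for Mup4, -0.52 for Mup5 (-0.96 to -0.08) and 0.01 for Mup6. The 3 weakly counted rows thus had the direction of the abundant ones in DR, and only Mup5 of them passed the limits for a call in DR-AL against AL.

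**Figure D2:**
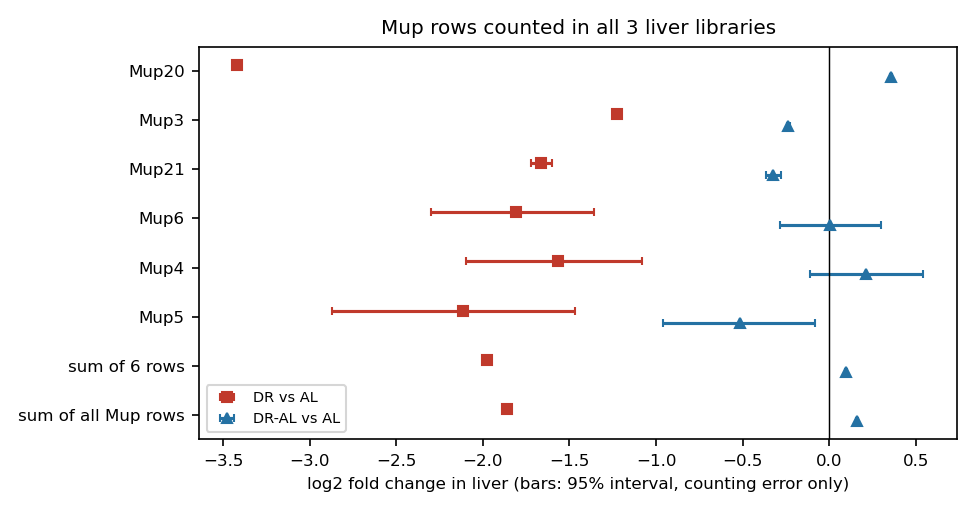
Log2 fold change in liver of the 6 separable Mup rows, their sum and the sum of all 17 rows, for DR against AL (squares) and DR-AL against AL (triangles); bars are 95% intervals of counting error and are narrower than the symbols for the abundant rows. Every square lies left of 0, from -3.42 for Mup20 to -1.22 for Mup3, and the triangles lie between -0.52 and 0.36.

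A row was called where the Z test of the study's methods, computed over all named rows with counts in the tissue, gave a Benjamini-Hochberg adjusted p under 0.05 and the higher level was at least 25% above the lower one. In liver, DR against AL, the 6 separable rows were all called lower, while 9.92% of all rows tested were called lower and 18% higher. Their median log2 fold change was -1.73, and that of all rows tested was 0.10. In DR-AL against AL, Mup5 and Mup21 were called lower and Mup20 higher, with 15.8% of all rows called lower and 15% higher, and the median of the 6 was -0.11. These 3 calls depend on the rule: none was made with a fold of 2 or by edgeR's exact test, Mup21 was not called with size factors or with totals without the 10 most abundant rows, and on the FPKM scale Mup3 was past the fold and Mup20 was not. In DR-AL against DR, all 6 were called higher, with log2 fold changes from 0.99 for Mup3 to 3.78 for Mup20, where 16.9% of all rows were called higher and 24% lower. The 3 comparisons of a tissue share libraries, so they are not independent of one another.

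The 11 near-identical rows behaved otherwise. None had a count in any of the 5 AL libraries. In DR liver all 11 had counts, 8486 in all or 7.65% of the family's counts (7.50% to 7.81%). In DR-AL liver 8 of them had counts, 21579 in all or 4.27% (4.21% to 4.32%). The row that held the counts differed between these libraries. In DR liver, 6476 counts were on Gm2083/Mup10/Mup11/Mup2, 1012 on Mup15/Mup2/Mup7, 322 on Mup1, 262 on Mup16, 232 on Mup12 and 107 on Mup9. Mup17 had 37, Mup14/Mup15/Mup2 had 26, Mup13 had 8, Mup8 had 3 and Mup19 had 1. In DR-AL liver the 3 rows with several names were at 0, and Mup17 held 14665 counts, Mup1 3099, Mup12 1771, Mup16 1394 and Mup9 517. Mup13 had 62, Mup8 had 59 and Mup19 had 12.

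Reads from these genes can be placed on one copy or another, so the counts of a single one of the 11 rows are uncertain. By the call rule, 10 of the 11 were higher in DR than in AL, where 18% of all rows tested were. In DR-AL against AL 8 were higher, where 15% of all rows were. Every one of these calls was against a row listed at 0, and that of Mup8 in DR rested on 3 counts. In DR-AL against DR, the 3 rows with several names were called lower and the other 8 higher (24% and 16.9% of all rows). Because the rows filled differ by diet also outside the liver, at very low counts, these calls are given without a fold. In the 4 tissues other than liver, the 11 rows had 0 counts under AL, 11 counts under DR that were all on rows with several names, and 19 counts under DR-AL that were all on rows with 1 name. Rows with several names thus had counts only under DR, in liver, fat, colon and hypothalamus, and outside liver these counts were few. In DR liver, rows with 1 name had counts as well. Hippocampus had 0 counts on the 11 rows under every diet and shows no pattern. Rows at 0 in 1 liver library and at 300 counts or more in another numbered 10 in the whole table, and 7 of them were Mup rows.

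**Figure D3:**
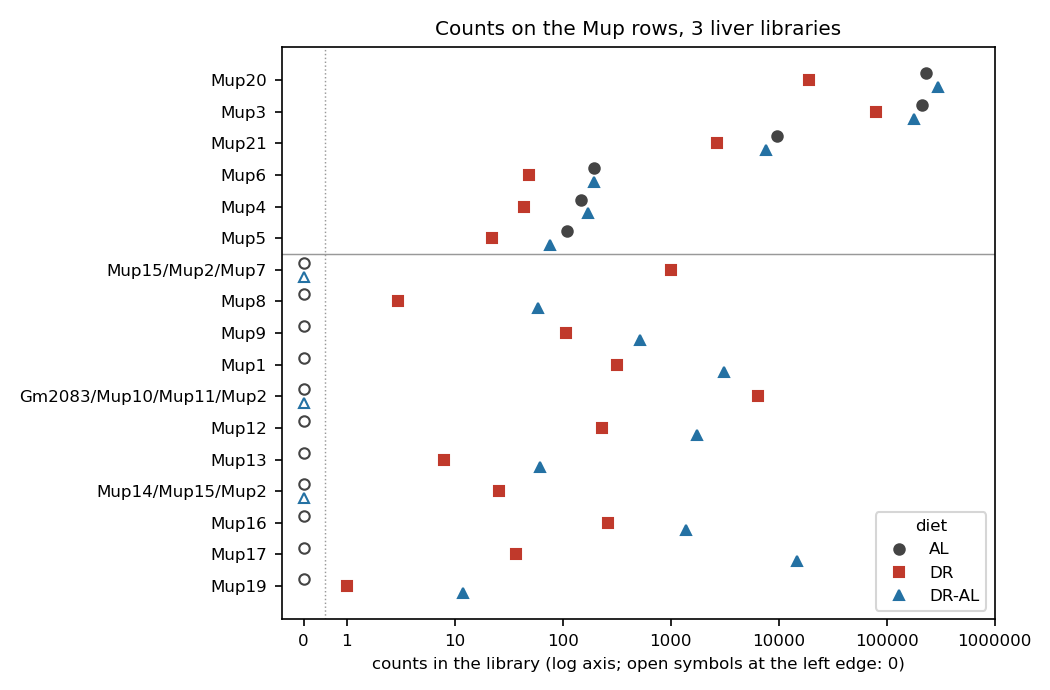
Counts on each of the 17 Mup rows (log axis, with 0 at the left edge as open symbols) in the AL, DR and DR-AL liver libraries. For the 6 rows above the line, DR is the lowest library; for the 11 rows below it, AL is at 0, and Mup17 goes from 37 counts in DR to 14665 in DR-AL while Gm2083/Mup10/Mup11/Mup2 goes from 6476 to 0.

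The balance of Mup20 and Mup3, both separable by sequence, differed between the liver libraries and did not need any scaling between libraries. Mup20 made up 52.3% of the counts on both rows in AL liver (52.1% to 52.4%), 19.3% in DR liver (19.1% to 19.6%) and 62.3% in DR-AL liver (62.2% to 62.4%). In fat the shares were 58.2% under AL (57.8% to 58.6%), 8.06% under DR (3.94% to 14.3%, 124 counts on both rows) and 68.8% under DR-AL (55.9% to 79.8%, 64 counts). The DR library had the lowest share in both tissues. In colon the shares were 58.9% under AL, 28.3% under DR and 42.6% under DR-AL, and the intervals of DR (15.99% to 43.5%) and AL (50.7% to 66.9%) did not overlap. In hypothalamus and hippocampus the DR and DR-AL libraries had at most 22 counts on both rows, and no order was detectable at this depth.

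**Figure D4:**
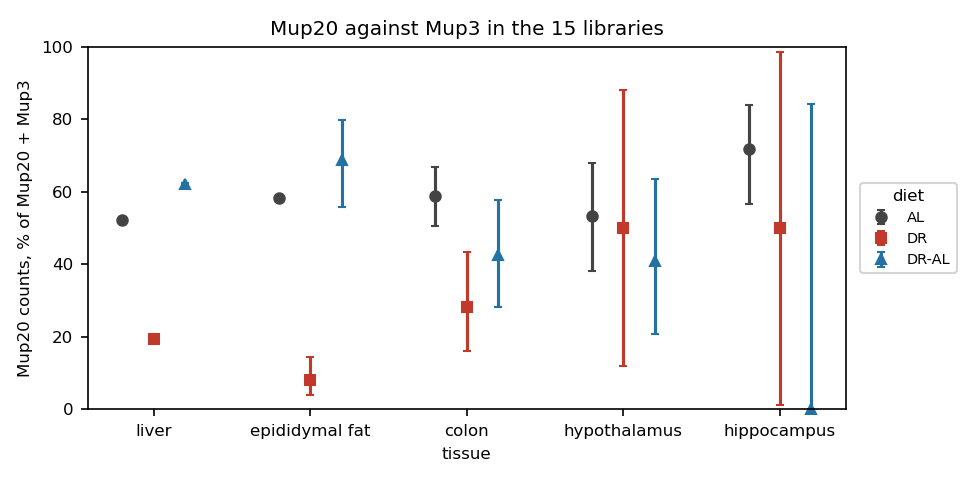
Mup20 counts as a percent of Mup20 plus Mup3 counts (vertical axis) in each of the 15 libraries, by tissue and diet; bars are exact 95% Clopper-Pearson intervals. DR is the lowest point in liver (19.3%), fat (8.06%) and colon (28.3%), and the bars of hypothalamus and hippocampus are wide, reaching from 1.26% to 98.7% in DR hippocampus.

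In epididymal fat, Mup counts were high in the AL library and near 0 in the others. The family had 54148 counts in AL fat (2065 CPM), 148 in DR fat (6.48 CPM) and 83 in DR-AL fat (3.03 CPM). The log2 fold changes were -8.31 for DR against AL (-8.56 to -8.08) and -9.40 for DR-AL against AL (-9.74 to -9.10). These intervals leave out the processing, since the first value was -7.19 without Mup20 and -8.91 on the FPKM scale, and the second was -10.98 on the FPKM scale. In contrast to liver, the summed level in fat did not return to the AL level in DR-AL.

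Mup20 had 30950 counts in AL fat, 10 in DR fat and 44 in DR-AL fat. Mup3 had 22216, 114 and 20 counts in the same order, and Mup21 had 952, 17 and 1. The AL library was thus above the others by orders of magnitude for each of the 3 abundant rows. Mup6 had 15, 1 and 1 counts, Mup4 had 11, 0 and 0, and Mup5 had 4, 1 and 8, so Mup5 alone did not have its highest count in AL. Of the 9 Mup rows with counts in fat, 5 were called lower in DR than in AL (all of the 6 but Mup5), where 10.4% of all rows tested were called lower and 35.2% higher. The same 5 were called lower in DR-AL than in AL, with a background of 11.9% lower and 46% higher. One row of the 11 near-identical ones was called higher in each comparison, Gm2083/Mup10/Mup11/Mup2 in DR (5 counts against 0) and Mup17 in DR-AL (8 counts against 0). In DR-AL against DR, 3 rows were called lower (Mup3, Mup21 and Gm2083/Mup10/Mup11/Mup2) and 3 higher (Mup20, Mup5 and Mup17), with 13.3% of all rows lower and 38.3% higher. With only rows of a mean of at least 10 counts, 3 Mup rows were called in each of the 3 fat comparisons.

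The hepatocyte markers moved with the Mup rows in fat. All 21 with counts in fat were called lower in DR-AL than in AL (11.9% of all rows), and 20 of the 21 in DR than in AL (10.4%). In DR-AL against DR, 18 were called lower and 1 higher (13.3% and 38.3% of all rows). The summed level of the markers was 26062 CPM in AL fat, 9774 CPM in DR fat and 6280 CPM in DR-AL fat, against 120513, 116194 and 111745 CPM in liver. The sum in DR and DR-AL fat came mostly from Cyp2e1 (5240 and 4103 CPM) and Trf (4415 and 2142 CPM). As a share of the level in liver of the same diet, the Mup sum stood at 11.2% in AL fat (5.30% with size factors and 4.15% on the FPKM scale), where the median marker stood at 12.4% (quartiles 11.2% and 16.4%). In DR fat the Mup sum stood at 0.127% and the median marker at 0.133% (0.108% to 0.195%). In DR-AL fat the Mup sum stood at 0.0147%, below the lower quartile of the markers (0.0180%) and above their lowest value (0.0137%). The Mup sum was thus within or beside the range of the liver markers in every fat library, and the part of liver RNA in the Mup counts of fat was not tested.

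**Figure D5:**
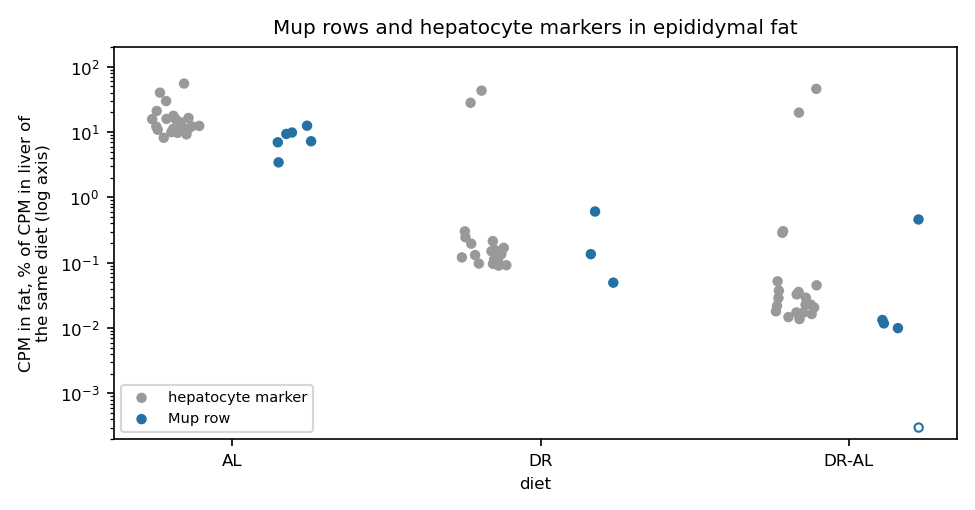
CPM in epididymal fat as a percent of the CPM in liver of the same diet (log axis) for the 21 hepatocyte markers with counts (grey) and for the separable Mup rows with at least 100 counts in that liver library (blue; the open point at the bottom is Mup4, 0 counts in DR-AL fat). Most points of both kinds lie near 10% in AL, near 0.1% in DR and between 0.01% and 0.1% in DR-AL, and the 2 grey points that stay high in DR and DR-AL are Cyp2e1 and Trf.

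Mup counts were few in the other tissues. The family had 155, 50 and 61 counts in AL, DR and DR-AL colon, 56, 18 and 39 in hypothalamus, and 46, 2 and 3 in hippocampus. AL was the highest library in each of the 3 tissues. In colon the Mup sum stood at 0.0316%, 0.0294% and 0.0118% of the liver level of the same diet, and the median hepatocyte marker at 0.0301%, 0.0301% and 0.0293%. In hippocampus the corresponding values were 0.00615%, 0.00126% and 0.000578% for the Mup sum and 0.00596%, 0.00189% and 0.00225% for the median marker. In hypothalamus the Mup sum stood at 0.0102%, 0.0108% and 0.00605%, and the median marker at 0.0191%, 0.00258% and 0.0123%. The part of liver RNA in these counts was not tested either.

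In colon, Mup20 had 89, 13 and 20 counts under AL, DR and DR-AL, and Mup3 had 62, 33 and 27. Both were called lower in DR than in AL, with log2 fold changes of -3.05 for Mup20 (-4.07 to -2.26) and -1.23 for Mup3 (-1.90 to -0.61), where 19.7% of all rows were called in either direction. Both were also called lower in DR-AL than in AL, and Mup17 was called higher there from 0 counts, with 14.3% of all rows called. Only Mup17 was called in DR-AL against DR, where 14.5% of all rows were. In hypothalamus Mup20 had 25, 3 and 9 counts, Mup3 had 22, 3 and 13, and Mup6 had 8, 6 and 15. Mup6 was the row with the most counts in DR and DR-AL hypothalamus, stood at 3.402% of its liver level in AL and 6.04% in DR-AL, far above the median hepatocyte marker, and had 0 counts in colon and hippocampus. Mup20 and Mup3 were called lower in DR than in AL (7.05% of all rows called), Mup20 alone in DR-AL than in AL (15.1%), and Mup3 was higher in DR-AL than in DR (9.62%). Mup6 was called in none of the 3 comparisons. In hippocampus Mup20 had 33, 1 and 0 counts and Mup3 had 13, 1 and 2. Both were called lower in DR (4.03%), Mup20 alone in DR-AL (6.15%), and no Mup row was called in DR-AL against DR (4.88%).

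A list of 21 genes was drawn up for a link to Mup transcription or to growth hormone action, and not all of them are regulators of Mup genes. Of these, 3 were called higher and 2 lower in DR than in AL liver, near the shares over all rows (18% higher and 9.92% lower). Their median log2 fold change was -0.11. Among the 4 with the most counts, Igf1, a secreted mediator of growth hormone, and Ghr, the growth hormone receptor, stood at 0.01 (-0.01 to 0.04) and -0.12 (-0.16 to -0.09) and were not called. Both were called lower in DR-AL than in AL, at -0.50 and -0.72. In that comparison 9 of the 21 genes were called lower and 1 higher (15.8% and 15% of all rows), with a median of -0.24. In DR-AL against DR 10 were called lower and 1 higher (24% and 16.9% of all rows), with a median of -0.16. The 3 higher in DR were Cux2, Bcl6 and Foxa2, named after their values were seen. Cux2, a repressor known for its female-biased expression in liver, had 61, 451 and 32 counts under AL, DR and DR-AL, a log2 fold change of 3.06 in DR (2.68 to 3.48). Bcl6, a repressor known for its male-biased expression in liver, had 411, 1481 and 595 counts, a log2 fold change of 2.03 (1.88 to 2.19). Foxa2, a hepatocyte transcription factor, stood at 0.35. Nr3c1, the glucocorticoid receptor, also named after its values were seen, was called lower in DR at -0.36.

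Of 14 genes known for male-biased expression in liver, 13 were called lower and 0 higher in DR than in AL liver (9.92% and 18% of all rows), with a median log2 fold change of -1.85 that is the same with 1 gene at 0 in DR set to 3 counts. Serpina1e, a serine protease inhibitor, had 144553, 7668 and 108578 counts under AL, DR and DR-AL (-4.05 in DR, -4.09 to -4.02). Cyp2d9, a steroid hydroxylase, had 64443, 21792 and 40758 counts (-1.38, -1.40 to -1.36). In DR-AL against AL, 12 were called lower (15.8% of all rows), with a median of -1.14, whereas of the 6 separable Mup rows 2 were called lower and 1 higher with a median of -0.11. Serpina1e is also one of the hepatocyte markers.

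Of 15 genes known for female-biased expression in liver that had counts, 11 were called higher and 0 lower in DR than in AL (18% and 9.92% of all rows), and the median log2 fold change was 2.63, or 2.06 with the 3 genes at 0 in AL set to 3 counts. Cyp2b9, a cytochrome P450, had 7, 4551 and 10 counts under AL, DR and DR-AL (9.43 in DR, 8.48 to 10.8), and ranked among the 4 members with the most counts only through the DR library. Prlr, the prolactin receptor, had 2817, 5532 and 2516 counts (1.16, 1.09 to 1.22). In DR-AL against AL 3 were called higher and 1 lower (15% and 15.8% of all rows). In the DR liver library most male-biased genes and the 6 separable Mup rows were thus called lower than in AL, and most female-biased genes higher.

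Of 11 lipocalins and lipid carriers outside the Mup cluster, 2 were called higher and 0 lower in DR, near the 18% higher of all rows, with a median of 0.12 against 0.10 over all rows. Rbp4, the retinol carrier of plasma, had 131332, 112185 and 115256 counts under AL, DR and DR-AL (-0.04 in DR, -0.05 to -0.03). Orm1, an acute-phase plasma protein, had 16542, 14429 and 9595 counts (-0.01, -0.05 to 0.02). The 16 genes beside the Mup cluster on chromosome 4 that had counts in liver were divided in DR against AL, with 2 called higher and 4 lower (18% and 9.92% of all rows) and a median of -0.05. Hsdl2, a hydroxysteroid dehydrogenase-like enzyme, had 3934, 1626 and 7168 counts (-1.09 in DR, -1.17 to -1.01), and Alad, an enzyme of heme synthesis, had 3837, 4677 and 2099 counts (0.47, 0.41 to 0.53). Hsdl2 thus had the order of the Mup sum over the liver libraries, and Alad the reverse order.

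The genes whose levels over the 15 libraries were most like the Mup sum were Mat1a, Serpina3k, Ahsg, Cyp3a11 and Apoa1, of 14807 named rows compared. The root mean square differences of their centred log2 levels from the Mup sum were 0.530, 0.583, 0.637, 0.650 and 0.669. Serpina3k, Ahsg, Cyp3a11 and Apoa1 are among the hepatocyte markers. Mat1a, which makes S-adenosylmethionine in liver, had 144762, 80258 and 195985 counts in AL, DR and DR-AL liver and 32997, 105 and 41 in fat, so its order over the liver libraries was that of the Mup sum. The 15 points are not independent, since libraries of 1 tissue share their composition.

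Promoters of 3 separable rows called lower in DR liver (Mup3, Mup21 and Mup4), and that of Mup17 for the near-identical copies, are shown next, from the RefSeq table on GRCm38.p6, each 300 bases long and spanning the start of the gene, 5′ to 3′ on the minus strand. Capitals mark matches to the motifs spelled out after the sequences, on either strand.
Mup3 (chr4:62087268-62087567): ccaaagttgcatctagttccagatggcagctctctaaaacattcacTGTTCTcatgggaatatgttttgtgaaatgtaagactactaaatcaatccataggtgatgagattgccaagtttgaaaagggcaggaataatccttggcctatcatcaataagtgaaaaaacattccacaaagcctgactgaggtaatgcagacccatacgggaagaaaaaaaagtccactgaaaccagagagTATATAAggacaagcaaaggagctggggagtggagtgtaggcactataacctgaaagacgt
Mup21 (chr4:62150792-62151091): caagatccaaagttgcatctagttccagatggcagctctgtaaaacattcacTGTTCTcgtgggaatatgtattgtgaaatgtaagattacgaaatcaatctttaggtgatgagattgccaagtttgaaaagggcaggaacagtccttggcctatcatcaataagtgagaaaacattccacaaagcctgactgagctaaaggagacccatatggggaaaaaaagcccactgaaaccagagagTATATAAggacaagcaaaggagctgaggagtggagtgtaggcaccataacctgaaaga
Mup4 (chr4:59960618-59960917): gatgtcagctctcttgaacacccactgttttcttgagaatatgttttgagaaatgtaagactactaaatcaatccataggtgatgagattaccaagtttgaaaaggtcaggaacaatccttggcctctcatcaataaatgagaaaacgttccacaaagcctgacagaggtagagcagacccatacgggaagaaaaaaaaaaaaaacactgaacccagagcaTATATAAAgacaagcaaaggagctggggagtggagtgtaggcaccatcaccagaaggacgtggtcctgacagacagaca
Mup17 (chr4:61595783-61596082): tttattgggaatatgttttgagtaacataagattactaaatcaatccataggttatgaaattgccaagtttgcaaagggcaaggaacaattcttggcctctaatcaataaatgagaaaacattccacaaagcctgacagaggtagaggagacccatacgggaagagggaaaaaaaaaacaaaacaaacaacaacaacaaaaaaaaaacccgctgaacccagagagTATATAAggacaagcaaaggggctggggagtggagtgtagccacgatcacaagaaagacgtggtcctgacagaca
TATATAA, searched for after the sequences had been seen, was in 13 of 14 Mup promoters and in 3.24% of 32851 promoters in the table. TATAAA was in 2 of the 14 (Mup4 and Mup6, where it overlaps the longer motif) and in 13.6% of all promoters. AGAACA, a core element bound by glucocorticoid and androgen receptors, was in 2 (Mup3 and Mup21) and in 19.0% of all. The STAT5 element TTCNNNGAA and the C/EBP motif written as TTGCNNAA were in 0 of the 14 windows, and in 8.30% and 10.8% of all. The search covered both strands. A match is a run of letters and not a shown site, and 0 matches speak only of these windows. The table matched no promoter for Mup1, Mup5, Mup8, Mup12, Mup13, Mup16 or Mup20.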

How the data were processed

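According to the methods, ribosomal RNA was depleted, stranded libraries were read as pairs of 75 bases, and the authors trimmed reads, aligned them with Strand software, discarded duplicates and used the DESeq algorithm to quantify genes. The methods name mm10 and the submitters' processing notes name mm9. Of 14 Mup rows with 1 name, 1 overlapped its GRCm38 position in GENCODE M21, so positions printed here are those of GRCm38. The authors deposited 1 table, in which each row has counts and FPKM values for the 15 libraries, and all 30 columns were used. The deposited counts are whole numbers without scaling between libraries. The deposited FPKM values are scaled by length and library, and were used to compare levels between genes. How reads that match several copies were counted is not given in the sources used here.

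Counts were divided by the total on named rows (rows without a name held 0.258% to 1.39% of counts). The Z test compared square roots of these proportions with Poisson variance, two-sided. For log2 fold changes, counts were brought to the average total of a tissue's libraries and 0.5 was added as pseudocount. By counting error alone, a row at 0 may hold up to 3 counts. For rows listed at 0 as Alb and Scd1 were, this bound need not hold, and medians with 0 set to 3 counts share that limit. Intervals are exact 95% Clopper-Pearson intervals, which cover counting error only. Words of 75 bases and coding identities came from GENCODE M21 transcripts. Likeness to the Mup sum was taken over rows reaching 10 CPM. Named were all Mup rows, up to 4 members with the most counts of each gene list, and the 5 most alike genes, and some list members are not reported here. The members and lists were chosen with earlier results of these data known. The scripts were tested on simulated data. Versions were Python 3.11.15, pandas 2.3.3, SciPy 1.17.1 and edgeR 4.0.16. Alternatives were median-of-ratios size factors, totals without the 10 most abundant rows, FPKM with pseudocounts of 0.1 and 1, a filter at a mean of 10 counts, a fold of 2, edgeR's exact test with a preset biological coefficient of variation of 0.1, and other sums of rows.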

Additional observations from a re-analysis of the deposited data

Results flagged for a closer look

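Some effects had opposite directions in liver and epididymal fat, and with 1 library per tissue and diet these differences between tissues were not tested. In DR-AL against AL the Mup sum had a log2 fold change of 0.16 in liver and -9.40 in fat. Mup20 stood at 0.36 in liver and -9.50 in fat. Mup5 stood at -0.52 in liver and at 0.86 in fat, where it had 4 counts in AL and 8 in DR-AL. In DR-AL against DR the Mup sum stood at 2.02 in liver and -1.09 in fat, and Mup3 at 0.99 in liver and -2.74 in fat. Hepatocyte markers moved with the Mup rows in fat, as given above, and their part was not tested.

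A row outside the comparisons also carried counts of the family. LOC100048884, whose Entrez identifier RefSeq assigns to Mup18, is not named as a Mup gene in the table. It was listed at 0 in AL liver and had 1472 counts in DR liver and 1883 in DR-AL liver, like the near-identical Mup rows.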

How the results depend on the processing

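The depth of the liver libraries was ample for Mup20, Mup3 and Mup21. Limits are the pooling, the single library per group and reads shared by near-identical copies. According to the methods duplicate reads were discarded, and the effect of this on the most abundant rows was not tested. No paired analysis was possible because each tissue and diet has 1 library. The lower sum in DR liver and in DR and DR-AL fat kept its direction under every alternative run. For DR against AL in liver (-1.86), the sum stood at -1.95 with size factors, -1.83 with totals without the 10 most abundant rows, -1.92 with FPKM, -1.10 without Mup20, and -1.96 over rows with 1 name. For DR-AL against AL in liver (0.16), it stood at 0.18 with size factors, 0.18 without the abundant rows, 0.05 with FPKM, and -0.08 without Mup20, the 1 change of direction among 42 alternative sums. For DR-AL against DR in liver (2.02), it stood at 2.13 with size factors, 1.97 with FPKM, 1.02 without Mup20 and 2.12 over rows with 1 name. In fat the sum stood at -8.91 with FPKM and -7.19 without Mup20 for DR against AL, at -10.98 with FPKM for DR-AL against AL, and at -2.07 with FPKM and -2.07 without Mup20 for DR-AL against DR. Sums chosen after seeing the data were those over the 6 separable rows, which gave -1.97, 0.10 and 2.07 in liver, and those with LOC100048884 added, which gave -1.84 for DR against AL in liver. With a mean of at least 10 counts, 3 Mup rows were called in fat in place of 6 in each comparison, since fewer rows were tested, and FPKM with a pseudocount of 1 called 2 in DR-AL against DR. The other 38 of 42 counts of calls stayed within 1.5 times the value given, but in DR-AL against AL in liver a fold of 2 and edgeR each left 8 rows higher and 0 lower in place of 9 and 2, with 0 of the 6 separable rows called. The share of Mup20 in the family's counts was 17.4% in DR liver and 58.6% in DR-AL liver, or 17.6% and 58.8% on the FPKM scale. The Mup sum in AL fat was 11.2% of that in AL liver, 5.30% with size factors and 4.15% with FPKM; the cause was not tested.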
